A study of Homo sapiens with 2 samples.

Results

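Immediate early genes and feedback genes of the ERK cascade were described in RKO cells, a human colorectal carcinoma line known to carry mutant BRAF. One library was made after siRNA against HNRNPM and is labelled as an HNRNPM knockdown (siHNRNPM). The other was made after a control siRNA and is labelled wild type (siNC). HNRNPM encodes a nuclear RNA-binding protein that acts in splicing. Each group had 1 RNA-seq library, and both groups were grown in serum-containing medium. For neither siRNA do the labels state a sequence or how long cells were treated. The genes were taken by name from a list of 45, covering AP-1, EGR, IER and KLF factors, ZFP36 proteins, DUSP, SPRY and SPRED feedback genes, ETS factors and kinases of the cascade. Of these, 44 had a row among the 54261 genes of the table and 42 were measured, meaning a CPM (counts per 1000000 of the scaled library) of 1 or more in either library. MCL1P1 was not analysed here.

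In the ERK cascade, RAF kinases such as BRAF phosphorylate the kinases MEK1 and MEK2, which phosphorylate ERK. Active ERK switches on immediate early genes within minutes of a growth signal, without new protein synthesis, through factors such as ELK1 bound with SRF at their promoters. Dual-specificity phosphatases (DUSP) and Sprouty proteins (SPRY, SPRED), themselves made in response to ERK, then dampen the cascade, and the short-lived messages are removed through AU-rich sequences bound by ZFP36 proteins. In cells with mutant BRAF, the ETS factors ETV4 and ETV5 and the genes DUSP6 and SPRY4 are commonly read as ERK output. The counts say nothing of the phosphorylation of any of these proteins.

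The promoters of 4 of these genes are shown because they carry some of the sequences through which immediate early genes are known to be switched on. FOS, EGR1 and DUSP1 were lower in the siHNRNPM library and FOSB was higher. Each run holds 250 bases before and 50 bases from the gene start on GRCh38.p14, from RefSeq, which held promoters for 34 of the 45 genes. Capitals mark the CArG box that SRF binds, the partial CRE TGACG, which lies within the full CRE (TGACGTCA), the AP-1 site (TGACTCA or TGAGTCA) and TATAAA, each on either strand.
FOS (chr14:75278578-75278877, plus strand): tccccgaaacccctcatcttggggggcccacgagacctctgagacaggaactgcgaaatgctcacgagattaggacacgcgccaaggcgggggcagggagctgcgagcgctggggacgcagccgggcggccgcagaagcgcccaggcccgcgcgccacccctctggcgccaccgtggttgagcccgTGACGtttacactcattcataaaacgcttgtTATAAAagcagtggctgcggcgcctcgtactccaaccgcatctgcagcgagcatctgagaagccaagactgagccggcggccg
FOSB (chr19:45467746-45468045, plus strand): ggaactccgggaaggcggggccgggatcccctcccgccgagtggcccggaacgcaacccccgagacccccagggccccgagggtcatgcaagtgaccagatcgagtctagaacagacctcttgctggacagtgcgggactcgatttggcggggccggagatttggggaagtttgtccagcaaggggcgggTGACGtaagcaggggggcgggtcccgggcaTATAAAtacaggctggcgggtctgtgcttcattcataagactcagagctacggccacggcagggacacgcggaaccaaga
EGR1 (chr5:138465229-138465528, plus strand): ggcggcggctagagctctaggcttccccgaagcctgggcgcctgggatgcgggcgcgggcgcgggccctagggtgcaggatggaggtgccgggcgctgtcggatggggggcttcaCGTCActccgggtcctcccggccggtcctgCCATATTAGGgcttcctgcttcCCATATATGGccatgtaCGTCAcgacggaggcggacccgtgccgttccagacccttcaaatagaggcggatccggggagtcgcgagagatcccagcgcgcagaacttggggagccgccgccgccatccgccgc
DUSP1 (chr5:172771146-172771445, minus strand): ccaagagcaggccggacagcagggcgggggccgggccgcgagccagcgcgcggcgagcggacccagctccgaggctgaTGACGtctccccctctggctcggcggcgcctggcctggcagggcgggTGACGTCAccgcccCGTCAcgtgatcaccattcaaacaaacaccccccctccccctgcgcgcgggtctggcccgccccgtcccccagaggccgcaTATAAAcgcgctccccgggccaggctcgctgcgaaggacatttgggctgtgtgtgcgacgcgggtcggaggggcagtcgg

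FOS and FOSB, which differed in opposite directions, had the same elements at nearly the same places. TGACG began 64 bases before the FOS start and 60 before the FOSB start, and TATAAA began 33 and 30 bases before. EGR1 had 2 CArG boxes, 105 and 83 bases before its start, and DUSP1 had a full CRE 125 bases before its start. TGACG was found in 21 of the 34 promoters (61.8%), against 25.01% of all 27305 promoters of the same length. The full CRE was found in 3 (8.82%, against 1.98%), namely in JUND, DUSP1 and DUSP8, and the CArG box in 2 (5.88%, against 1.29%), EGR1 and SRF. TATAAA was found in 5 (14.7%, against 11.95%) and the AP-1 site in 1 (2.94%, against 4.92%). CCGGAAG, a strict form of the ETS site, was found in 1 (2.94%, against 10.7%). Other GGA sequences were not searched, so this is no count of ETS sites. These matches describe the letters only, and promoters were not matched for base composition. Sequence more than 250 bases before the start was not searched. A gene without a match here, such as FOS or FOSB for the CArG box, may therefore carry the element further away.

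Reads assigned to genes numbered 13056118 with siHNRNPM and 19931360 with siNC. HNRNPM had 1042 reads (79.6 CPM) in the siHNRNPM library, against 2870 reads (144 CPM) in the siNC library, or 55.2% of the siNC level (counting interval 51.3% to 59.2%). Of 5 epithelial markers all had a read in both libraries, and KRT8 had 34.4 CPM with siHNRNPM and 27.5 with siNC. However, KRT19 had only 1 read in each library, and CDH1 had 1 read with siHNRNPM and 10 with siNC. Of 4 intestinal markers CDX1 and LGR5 had 0 reads in both libraries, VIL1 had 0 reads with siHNRNPM and 1 with siNC, and CDX2 had 8.10 CPM with siHNRNPM and 10.7 with siNC. Hepatocyte markers moved with the group. In the siHNRNPM library 12 of 17 had a read, with a summed level of 35.6 CPM, against 6 of 17 and 1.06 CPM in the siNC library, with AFP at 174 reads with siHNRNPM and 1 with siNC, while APOA1, TTR, FGG, RBP4 and HP had 0 reads in both. The part of such reads in the results below was not tested. Of the leukocyte markers, CD68 had 885 CPM with siHNRNPM and 765 with siNC, and the others had at most 2 reads. Fibroblast markers summed to 2.90 CPM with siHNRNPM and 1.21 with siNC, and endothelial markers to 0.688 CPM with siHNRNPM and 0.905 with siNC.

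As a set, these genes were more often lower than higher in the siHNRNPM library. The 95% counting interval of the log2 ratio (siHNRNPM over siNC) lay below 0 for 21 of 42 genes, against 26.1% of all 12925 measured genes, and above 0 for 5, against 22.0%. It spanned 0 for 16. The median log2 ratio was -0.17 (quartiles -0.33 and 0.01), against -0.01 (-0.21 and 0.18) for all measured genes. The shares read similarly among genes with 5 CPM or more, where 21 of 40 were lower, against 29.3% of 10710 genes, and 5 of 40 were higher, against 23.2%. The differences were small in size. Fold counts took only genes whose interval also excluded 0. FOS alone was at least 2-fold lower, 1 of 42 against 1.49% of all genes, and none was at least 2-fold higher, against 2.45%. At 1.5-fold, 5 genes were lower (FOS, KLF2, ETS1, KLF4 and, only just, EGR1), against 4.56%, and none was higher, against 646 of 12925. EGR2, with a log2 ratio of 0.71, was not counted because its interval spanned 0. With 1 library per group there was no replicate check and no test; the intervals cover counting error only, and in a bulk library fewer cells and less RNA per cell cannot be told apart.

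**Figure D1:**
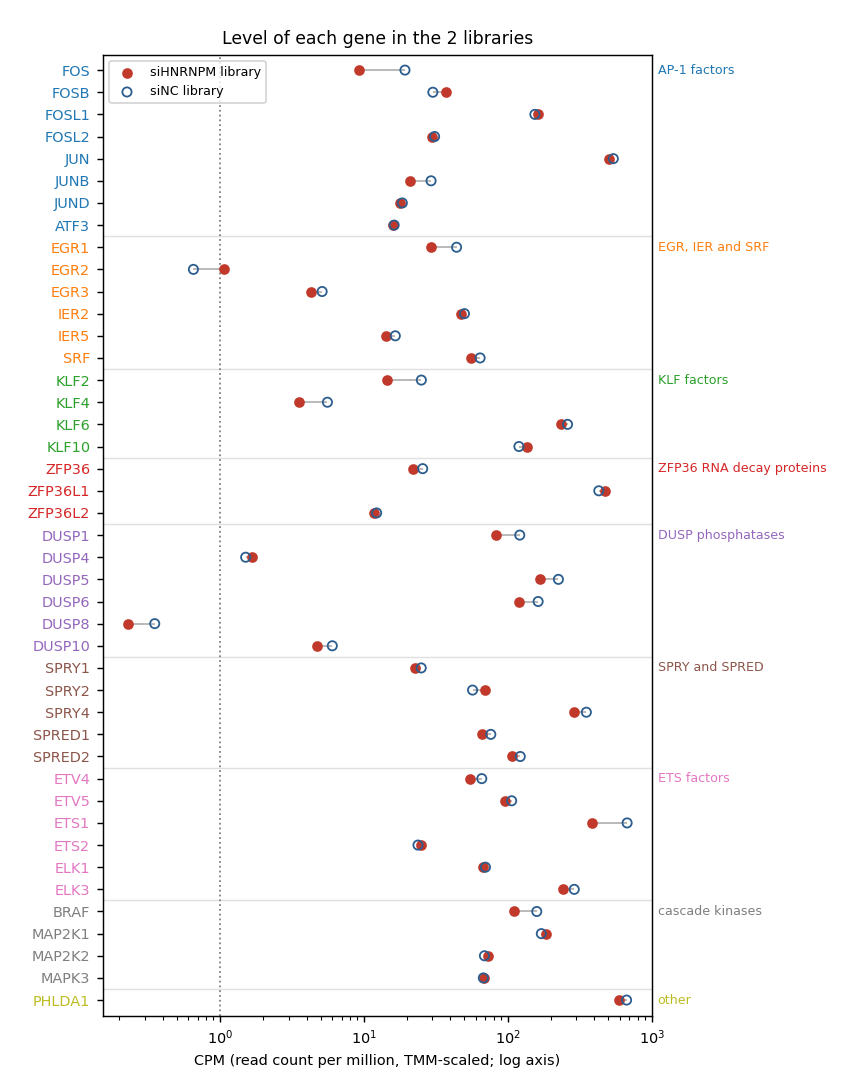
Level of each of 43 genes with a read, in CPM on a log axis, with filled points for the siHNRNPM library and open circles for the siNC library; the dotted line is the limit of 1 CPM. FOS had 9.32 CPM with siHNRNPM against 19.3 with siNC and ETS1 388 CPM with siHNRNPM against 676 with siNC, while most pairs of points lie close together.

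**Figure D2:**
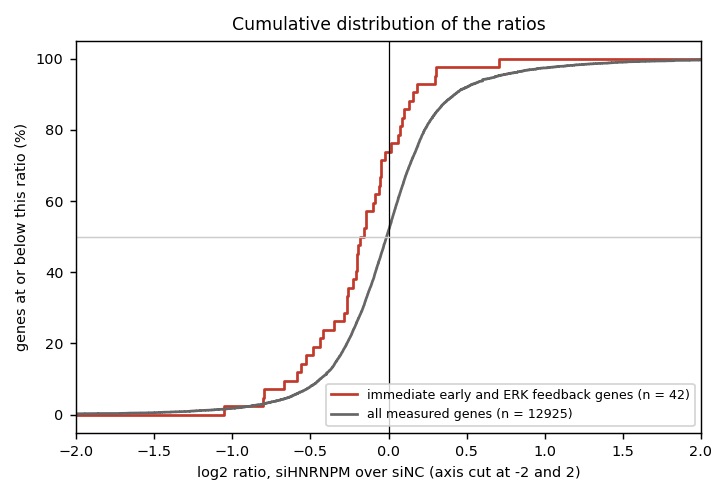
Share of genes (%) at or below each log2 ratio of siHNRNPM over siNC, for the 42 immediate early and ERK feedback genes and for all 12925 measured genes. The curve of the 42 genes lies to the left through the middle of the range, with 31 of 42 ratios below 0, against 51.8% of all genes, and the curves meet near -0.8.

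AP-1 is a dimer of a JUN protein with a FOS or ATF protein, and its genes are among the first to be induced by growth factors. FOS had 122 reads (9.32 CPM) in the siHNRNPM library, against 384 reads (19.3 CPM) in the siNC library, 2.07-fold lower with a log2 ratio of -1.05 (-1.36 to -0.75). The gene lies at chr14:75278774-75282230 on the plus strand (GENCODE 29, GRCh38). JUNB, which can restrain JUN activity, had 275 reads (21.0 CPM) with siHNRNPM against 583 (29.3 CPM) with siNC, a log2 ratio of -0.48 (-0.69 to -0.27); it overlaps HOOK2 on the opposite strand, at 12.4 CPM with siHNRNPM against 15.8 with siNC. These were the lowest ratios of the 8 AP-1 genes, and JUN was barely below 0. JUN, at 6631 reads (507 CPM) with siHNRNPM against 10780 (542 CPM) with siNC, had a log2 ratio of -0.10 (-0.14 to -0.05).

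FOSB went the other way. It had 488 reads (37.3 CPM) in the siHNRNPM library, against 600 reads (30.2 CPM) in the siNC library, a log2 ratio of 0.31 (0.13 to 0.48). Its end overlaps ERCC1 on the opposite strand, which had 223 CPM with siHNRNPM against 298 with siNC, and the sources used here do not say whether counting used strand, so reads of the pair cannot be told apart. The intervals of the other AP-1 genes spanned 0. FOSL1, the FOS-family gene most tied to sustained ERK activity, had 161 CPM with siHNRNPM and 154 with siNC (log2 ratio 0.06, -0.02 to 0.14). FOSL2 had 29.9 CPM with siHNRNPM and 31.0 with siNC, JUND 17.9 CPM with siHNRNPM and 18.5 with siNC, and the stress-induced ATF3 15.97 CPM with siHNRNPM and 16.24 with siNC.

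Levels compared between genes were taken per length. Per kilobase of annotated exon, JUN and FOSL1 stood far above the other AP-1 genes in both libraries, at 143 and 85.4 CPM per kb in the siHNRNPM library and 153 and 81.9 in the siNC library. JUNB followed at 11.5 CPM per kb with siHNRNPM and 16.1 with siNC, then JUND at 9.60 with siHNRNPM and 9.93 with siNC. FOS was the lowest of the 8 in the siHNRNPM library at 2.88 CPM per kb, below ATF3 at 3.95 and FOSL2 at 4.17. In the siNC library FOS had 5.96 CPM per kb, close to FOSB at 5.43 and above FOSL2 at 4.34 and ATF3 at 4.02. Exon lengths came from GENCODE 29, since the annotation used for counting was not given.

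The EGR zinc-finger factors and SRF are read as direct ERK outputs or mediators. EGR1 had 384 reads (29.3 CPM) in the siHNRNPM library, against 877 reads (44.1 CPM) in the siNC library, 1.503-fold lower with a log2 ratio of -0.59 (-0.76 to -0.41). It lies at chr5:138465490-138469315 on the plus strand. SRF, which encodes the factor that binds the CArG box, had 733 reads (56.0 CPM) with siHNRNPM against 1278 (64.3 CPM) with siNC, a log2 ratio of -0.20 (-0.33 to -0.07). The other EGR genes were low in both libraries, with intervals too wide to give a direction. EGR2 had 14 reads with siHNRNPM and 13 with siNC (log2 ratio 0.71, -0.49 to 1.92) and EGR3 56 reads with siHNRNPM and 102 with siNC (-0.26, -0.76 to 0.22). Among the IER genes, immediate early response genes of mixed function, IER2 had 47.14 CPM with siHNRNPM and 50.04 with siNC and IER5 14.4 CPM with siHNRNPM and 16.5 with siNC, both with intervals that spanned 0. IER3 had 0 reads in both libraries, which allows up to 0.229 CPM with siHNRNPM and 0.151 CPM with siNC (3 counts). GENCODE lists transcripts of IER3 outside the primary assembly too, so its 0 reads need not mean absence.

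KLF genes encode Krüppel-like zinc-finger factors. KLF2 had 189 reads (14.4 CPM) in the siHNRNPM library, against 499 reads (25.1 CPM) in the siNC library, a log2 ratio of -0.80 (-1.05 to -0.55). KLF4, a factor of epithelial differentiation, had 46 reads (3.51 CPM) with siHNRNPM against 111 (5.58 CPM) with siNC, a log2 ratio of -0.67 (-1.20 to -0.16). The more abundant KLF genes differed less. KLF6 had 234 CPM with siHNRNPM against 260.5 with siNC (-0.15, -0.22 to -0.09), and KLF10, induced by TGF-beta, was higher at 136 CPM with siHNRNPM against 119.6 with siNC (0.18, 0.09 to 0.27).

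The ZFP36 proteins bind AU-rich sequences and recruit deadenylases, so that immediate early messages decay fast. ZFP36 had 287 reads (21.9 CPM) in the siHNRNPM library, against 510 reads (25.6 CPM) in the siNC library, a log2 ratio of -0.23 (-0.44 to -0.01). ZFP36L1, the most abundant of the 3, was higher at 6164 reads (471 CPM) with siHNRNPM against 8542 (429.6 CPM) with siNC, a log2 ratio of 0.13 (0.09 to 0.18). ZFP36L2 had 11.8 CPM with siHNRNPM and 12.3 with siNC, with an interval from -0.35 to 0.25. The 3 genes thus had no common direction.

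DUSP genes encode phosphatases that switch off MAP kinases, and 3 of 5 measured were lower (60%, against 26.1% of all measured genes). DUSP1, a nuclear phosphatase of p38, JNK and ERK, had 1078 reads (82.4 CPM) in the siHNRNPM library, against 2411 reads (121 CPM) in the siNC library, a log2 ratio of -0.56 (-0.66 to -0.45). DUSP5, a nuclear ERK phosphatase, had 2199 reads (168 CPM) with siHNRNPM against 4476 (225 CPM) with siNC, a log2 ratio of -0.42 (-0.50 to -0.35). DUSP6, its cytoplasmic counterpart, had 1573 reads (120.2 CPM) with siHNRNPM against 3235 (163 CPM) with siNC, a log2 ratio of -0.44 (-0.52 to -0.35). These were the 3 abundant members of the family. DUSP4 had 22 reads with siHNRNPM and 30 with siNC (log2 ratio 0.16, -0.71 to 0.998) and DUSP10, which acts on JNK and p38, 62 reads with siHNRNPM and 120 with siNC (-0.35, -0.82 to 0.10). DUSP8 had 3 reads with siHNRNPM and 7 with siNC, under 1 CPM in both libraries, and has a copy outside the primary assembly.

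Sprouty and SPRED proteins block signalling between receptors and RAF. SPRY4 had 3784 reads (289 CPM) in the siHNRNPM library, against 6999 reads (352 CPM) in the siNC library, a log2 ratio of -0.28 (-0.34 to -0.23). SPRED1 had 66.1 CPM with siHNRNPM against 76.3 with siNC (-0.21, -0.33 to -0.09) and SPRED2 had 106 CPM with siHNRNPM against 122 with siNC (-0.20, -0.30 to -0.10). SPRY2 was the exception in this family. It had 916 reads (70.0 CPM) with siHNRNPM against 1133 (57.0 CPM) with siNC, a log2 ratio of 0.30 (0.17 to 0.42), while SPRY1 had 22.62 CPM with siHNRNPM and 25.05 with siNC, with an interval from -0.36 to 0.06. Over the DUSP, SPRY and SPRED genes together, 6 of 10 measured were lower (60%, against 26.1% of all measured genes) and 1 higher (10%, against 22.0%). Their median was -0.25, against -0.01.

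ETS factors bind GGA sequences and carry ERK signals to promoters. ETS1 had the largest difference in CPM of the 42 genes, with 5078 reads (388 CPM) in the siHNRNPM library, against 13441 reads (676 CPM) in the siNC library. Its log2 ratio was -0.80 (-0.85 to -0.75), at rank 12 from the lowest among the 2451 genes whose mean level reached 100 CPM. ETS1 lies at chr11:128458761-128587558 on the minus strand. The 42 genes together had 4674 CPM with siHNRNPM against 5419 CPM with siNC, a difference of -745 CPM, of which ETS1 made up -288 CPM, and without it the summed log2 ratio was -0.15 instead of -0.21.

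The other ETS genes differed less. ELK3 had 3154 reads (241 CPM) in the siHNRNPM library, against 5767 reads (290.0 CPM) in the siNC library, a log2 ratio of -0.27 (-0.33 to -0.20). ETV4 had 719 reads (54.9 CPM) with siHNRNPM against 1313 (66.0 CPM) with siNC, a log2 ratio of -0.27 (-0.40 to -0.13). ETV5 had 1263 reads (96.5 CPM) with siHNRNPM against 2118 (107 CPM) with siNC, a log2 ratio of -0.14 (-0.24 to -0.04). Both ERK-output ETS genes were thus slightly lower, though ETV4 overlaps DHX8 on the opposite strand and ETV5 overlaps DGKG on the same one, whose reads were not separable here. DHX8 had 64.3 CPM with siHNRNPM and 64.1 with siNC, and DGKG 26.5 CPM with siHNRNPM and 25.3 with siNC. The intervals of DHX8 and DGKG spanned 0. ELK1, the SRF partner, had 67.1 CPM with siHNRNPM and 70.0 with siNC and ETS2 24.99 CPM with siHNRNPM and 23.79 with siNC, both with intervals that spanned 0.

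Of the kinases, BRAF alone was lower. It had 1447 reads (111 CPM) in the siHNRNPM library, against 3165 reads (159 CPM) in the siNC library, 69.5% of the siNC level with a log2 ratio of -0.53 (-0.62 to -0.44). BRAF lies at chr7:140719327-140924928 on the minus strand and overlaps NDUFB2 on the other strand, which had 37.1 CPM with siHNRNPM against 48.5 with siNC. The counts do not separate mutant from wild-type BRAF. MAP2K1, which encodes MEK1, had 2398 reads (183 CPM) with siHNRNPM against 3405 (171 CPM) with siNC, a log2 ratio of 0.10 (0.02 to 0.17), and overlaps SNAPC5 on the other strand, at 10.1 CPM with siHNRNPM against 6.94 with siNC. MAP2K2, encoding MEK2, had 73.2 CPM with siHNRNPM and 68.9 with siNC, and MAPK3, encoding ERK1, 68.5 CPM with siHNRNPM and 67.7 with siNC, both with intervals that spanned 0. PHLDA1, an ERK-induced gene, had 7736 reads (591 CPM) with siHNRNPM against 13326 (670.2 CPM) with siNC, a log2 ratio of -0.18 (-0.22 to -0.14).

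**Figure D3:**
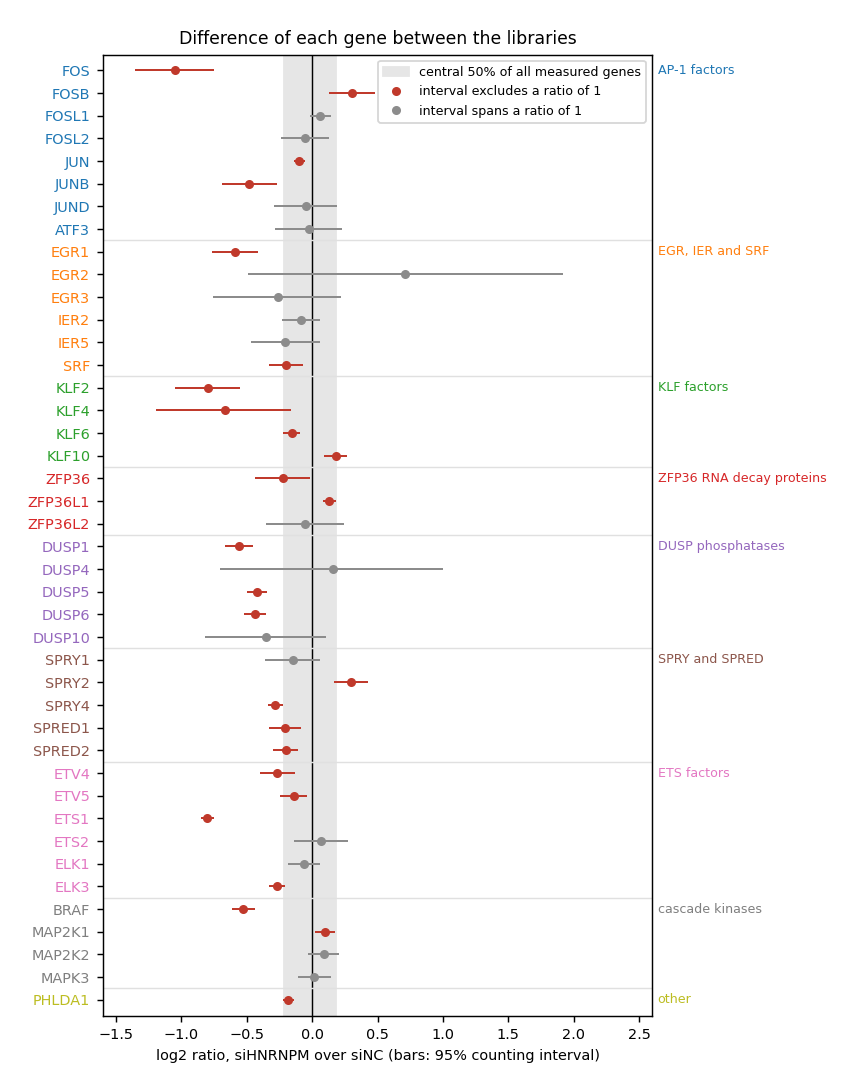
Log2 ratio of siHNRNPM over siNC for the 42 measured genes, grouped by role, with 95% counting intervals as bars, red where the interval excludes 0, and the central 50% of all measured genes in grey. The ratios of FOS, ETS1, KLF2, KLF4, EGR1, DUSP1 and BRAF lie at -0.5 or below, and those of FOSB, SPRY2, KLF10, ZFP36L1 and MAP2K1 lie above 0 with intervals that exclude it.

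JUN, JUNB, JUND and IER5 are annotated with 1 exon (GENCODE 29), and their log2 ratios were -0.10, -0.48, -0.05 and -0.20. The intervals of JUN and JUNB lay below 0 and those of JUND and IER5 spanned it. Single-exon genes were not compared with other genes.

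The AU-rich nonamer TTATTTATT, the core sequence that ZFP36 proteins bind, was counted in the longest annotated 3′ UTR of each gene. It was found in 12 of the 42 genes (28.6%), against 9.59% of 10793 measured genes with an annotated 3′ UTR. The sites of 3 genes are shown for their place in this circuit, with 10 bases on each side and the nonamer in capitals (GENCODE 29 transcripts).
FOS, 3′ UTR bases 636 to 664: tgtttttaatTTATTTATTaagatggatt
DUSP1, bases 91 to 119: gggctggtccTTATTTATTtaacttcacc
DUSP1, bases 359 to 387: agaatataccTTATTTATTtttgtgtagg
ZFP36, bases 497 to 525: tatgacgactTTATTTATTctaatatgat

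Genes with and without the nonamer were lower in the same share. Of the 12 with it, 6 were lower and 1 higher, with a median log2 ratio of -0.19. Of the 30 without it, 15 were lower and 4 higher, with a median of -0.15. Among all genes the share with an interval below 0 was 37.6% with the nonamer and 27.9% without, with medians of -0.08 and -0.02, and 3′ UTRs with it were longer (median 3096 against 1294 bases).

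A second sequence, GTGAGAA, had been picked out earlier from these same libraries because genes that carry it in the 3′ UTR tended to be lower. Its values here are therefore a description and no separate evidence. It occurred in 10 of the 42 genes (23.8%), against 14.7% of the 10793. The sites of the 5 with the lowest ratios are shown, with those of ATF3, which has 2 copies and an interval that spanned 0; capitals mark GTGAGAA.
ETS1, 3′ UTR bases 3007 to 3033: aaccttcatgGTGAGAAatacaccatc
KLF2, bases 302 to 328: gtgatgccttGTGAGAAataagggcct
KLF4, bases 847 to 873: catactcaagGTGAGAAttaagtttta
BRAF, bases 944 to 970: agttttgaatGTGAGAAatttagataa
DUSP6, bases 1674 to 1700: atatcctagtGTGAGAAtgctgaatcc
ATF3, bases 410 to 436: gggatgtggaGTGAGAAcagcatttag
ATF3, bases 1015 to 1041: gtttgcagctGTGAGAAgtcactcaca

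Of the 10 genes with GTGAGAA, 8 were lower and none was higher, with a median log2 ratio of -0.35. Besides the 5 named above, these were ELK3, PHLDA1 and SPRED2, which has 2 copies. Of the 32 genes without it, 13 were lower and 5 higher, with a median of -0.12. Over all genes 46.3% of the 1584 with the sequence were lower and 25.8% of the 9209 without, with medians of -0.14 and -0.01. Among the 42, 3′ UTRs with the sequence were longer (median 2652 against 1260 bases) and their genes more abundant in the siNC library (median 141 against 60.6 CPM), and the part of length and abundance was not tested. FOS, EGR1, JUNB, DUSP1 and DUSP5 were lower and had no copy.

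**Figure D4:**
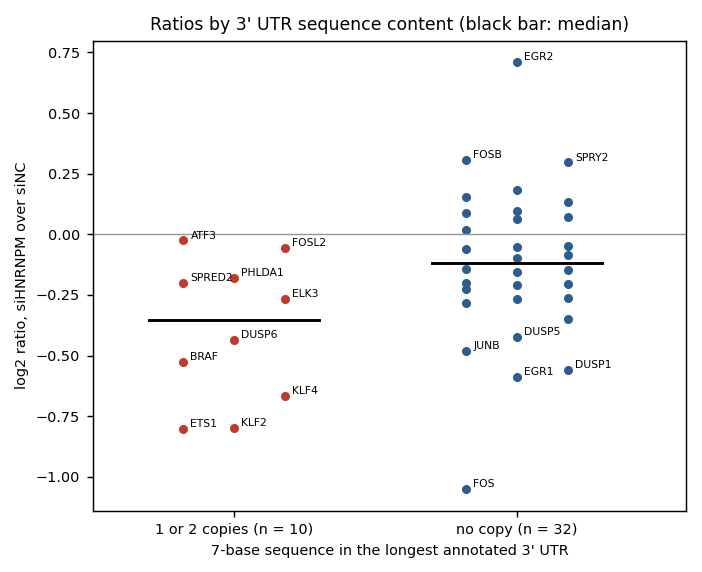
Log2 ratio of siHNRNPM over siNC for the 42 genes, split by whether the longest annotated 3′ UTR holds GTGAGAA; black bars are medians and no interval is drawn. The 10 genes with 1 or 2 copies all lie below 0 (median -0.35), and the 32 without a copy run from -1.05 for FOS to 0.71 for EGR2 (median -0.12).

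Further lists of pathway genes, written with earlier results of these data known, were also read. Of 10 genes widely used as an ERK output score, 9 were measured, and 7 were lower, 1 was higher (SPRY2) and 1 spanned 0 (DUSP4). The lower genes were 77.8% of the 9, against 26.1% of all measured genes, and the higher one 11.1%, against 22.0%. All of the 9 except CCND1 and EPHA2 were already described above, so these shares largely count the same genes again. Besides those given above, CCND1, the cyclin D1 gene, had 1015 reads (77.6 CPM) in the siHNRNPM library, against 3724 reads (187 CPM) in the siNC library, a log2 ratio of -1.27 (-1.37 to -1.17). The receptor gene EPHA2 had 317 CPM with siHNRNPM against 362 with siNC, a log2 ratio of -0.19 (-0.25 to -0.14), and EPHA4 had 0 reads with siHNRNPM and 1 with siNC. Without CCND1 the lower genes of this score differed by little, from -0.44 for DUSP6 to -0.14 for ETV5.

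The rest of the cascade was also lower more often than higher. Of 32 measured genes from receptors to ERK substrates, 18 were lower (56.25%, against 26.1% of all measured genes) and 3 higher (9.375%, against 22.0%). Their median log2 ratio was -0.16. The adaptor gene GAB1 had 9.17 CPM with siHNRNPM against 17.3 with siNC (-0.92, -1.23 to -0.61). The ERK-activated kinase genes RPS6KA5 and RPS6KA2 had -0.88 (-1.27 to -0.51) and -1.72 (-2.94 to -0.67), the last from 9 reads with siHNRNPM and 45 with siNC. Among 17 genes of the JNK and p38 branches, 8 were lower (47.1%, against 26.1%) and 2 higher (11.8%, against 22.0%). Their median was -0.06, and they were led by MAP3K1 at -0.61, MAP3K5 at -0.40 and MAPK12 at 0.38.

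Outside the list, immediate early genes had no common direction. Of 32 measured, 14 were lower (43.75%, against 26.1% of all measured genes) and 11 higher (34.4%, against 22.0%). Both shares were thus above those of all genes, and the median was -0.07. ARC had -1.19 (-2.30 to -0.19, from 11 reads with siHNRNPM and 38 with siNC), CTGF -0.80 (-1.06 to -0.54) and the GTPase gene GEM 0.76 (0.68 to 0.83). Of 6 other DUSP and SPRED genes measured, none was lower, against 26.1% of all measured genes, and 33.3% were higher, against 22.0%. The higher ones were DUSP14 at 1.07 (0.21 to 1.95, from 29 reads with siHNRNPM and 21 with siNC) and DUSP3 at 0.49 (0.40 to 0.58). Of 14 cytoskeletal targets of SRF, 6 were higher (42.9%, against 22.0%) and 5 lower (35.7%, against 26.1%). Their median was 0.06. TPM4 had 0.79, ACTG1 -0.69 and ACTA2 1.95 (61 reads with siHNRNPM and 24 with siNC); the actin genes are near-identical in sequence, so reads may be split between them.

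**Figure D5:**
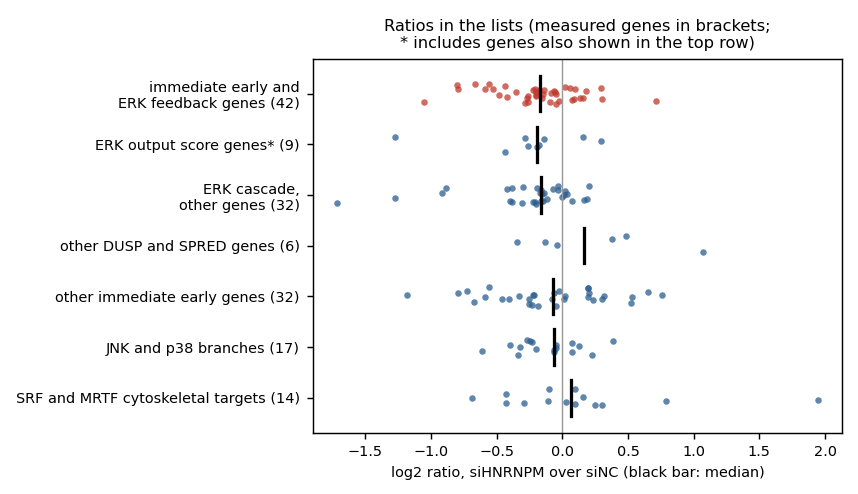
Log2 ratios of siHNRNPM over siNC for the measured genes of each list, 1 point per gene with the median as a black bar; vertical scatter is only for display. The medians were -0.17 for the immediate early and ERK feedback genes, -0.19 for the ERK output genes and -0.16 for the other cascade genes, against -0.07 for other immediate early genes and 0.06 for SRF cytoskeletal targets. The ERK output genes other than CCND1 and EPHA2 are also among the immediate early and ERK feedback genes.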

How the data were processed

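RNA-seq was done on 2 libraries of RKO cells, 1 per group, with groups taken from the treatment labels and columns tied to libraries by title. The authors deposited raw read counts, whole numbers listed by gene symbol. Per the submitters' processing notes HISAT2 2.0.4 and GRCh38 were used, in roles not stated; the counter, its annotation and its handling of multi-mapped reads are not given in the sources used here. Counts were scaled by TMM (edgeR 4.0.16, R 4.3.3; factors 1.00 and 0.998). The log2 ratio was computed per gene on all 12925 genes with 1 CPM or more in either library, with the exact Clopper-Pearson 95% interval of the read split (SciPy 1.17.1). PCR copies are not separate molecules, so intervals and the limit of 3 counts cover counting error only. The procedure was tested on counts simulated with counting error only, so that test does not cover variation between cultures. Every gene of the list with a row in the table was described; from further lists, the 3 largest ratios whose interval excluded 0 were named. The genes and lists were chosen with earlier results of these data known.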

Additional observations from a re-analysis of the deposited data

How the results depend on the processing

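With total-count scaling, DESeq2 1.42.0 size factors, 0.5 added to both counts, no CPM filter, restriction to protein-coding genes, or removal of genes that have copies outside the primary assembly, all 42 ratios kept their direction and their side of 0. Upper-quartile scaling shifted all ratios by 0.03. It turned ATF3 to 0.0075, made the interval of ZFP36 (-0.19) span 0 and that of FOSL1 (0.09) exclude it, and moved the median of the genes described to -0.14. At 5 CPM or more, without EGR2 and DUSP4, that median was -0.19. Of these genes, 5 were at least 1.5-fold lower with an interval that excluded 0. None had the whole interval beyond 2-fold, where FOS reached only to -0.75. EGR1 passed 1.5-fold narrowly, at -0.588. It fell short with total-count scaling (-0.581) and with upper-quartile scaling (-0.556). Over all genes, again counting only intervals that excluded 0, 317 were at least 2-fold higher and 193 lower. These counts were 602 and 301 without a filter, 70 and 50 at 5 CPM, and 145 and 126 for protein-coding genes. They were 646 and 589 at 1.5-fold, and 66 and 27 with the whole interval beyond 2-fold. No paired analysis was possible because each group had 1 library and no test. Without replicates, variation between cultures was not measured, and at the depth of these libraries the intervals of EGR2, EGR3, DUSP4 and DUSP10 were too wide to give a direction.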
